A study of Mus musculus with 8 samples.

Results

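The genes described here were chosen by name around the making, uptake, breakdown and sensing of extracellular adenosine, with earlier results of these data known. They are Entpd1, Nt5e, Ada, Adk, Adora2a, Adora2b, Dpp4 and Slc29a1. Of these 8 genes, 6 were measured, each by 1 probe set, among 19937 genes in all. Adora2a and Adora2b, which encode the adenosine receptors of the A2 type, had no probe set annotated to their symbol alone and were not analysed here.

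Extracellular ATP, which damaged and activated cells release, is an alarm signal for immune cells. The surface enzyme CD39 removes phosphates from ATP and ADP to give AMP, and CD73 turns AMP into adenosine. Adenosine then acts through receptors of the A2 type, which raise cyclic AMP (cAMP) in T cells and dampen their activation. It is cleared by deamination to inosine, or by uptake into cells and phosphorylation back to AMP. In mice, regulatory T cells (Tregs), which are CD4+ and hold immune responses in check, carry both CD39 and CD73, and this pair is one of their described means of suppression.

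The Tregs came from bone marrow chimeras. IIKO chimeras were CD3ε-/- mice given bone marrow of donors labelled IIKO after lethal irradiation, and WT chimeras were CD3ε-/- mice given wild-type marrow in the same way. The recipients' lack of CD3ε, without which T cells do not form, was therefore shared by both groups. The labels describe Tregs of IIKO chimeras as lacking interactions between their T cell receptor and MHC class II in the periphery, and those of WT chimeras as not lacking them. They give the strain as C57BL/6 and the age as 6 to 8 weeks for both, and they name neither the disrupted class II gene nor the number of mice behind a sample. At 28 days after reconstitution, cells that were CD4+, TCRβ+ and CD25+ were sorted from peripheral lymph nodes and spleen. Each group had 4 biological replicates, with 100 ng of total RNA and 1 Affymetrix array for each.

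All levels below are log2 expression, on which a difference of 1 is a doubling. The medians of the 8 arrays ran from 6.96 to 7.03 over 34760 probe sets. Precision is limited by there being 4 arrays a group. All 9 genes of a Treg and CD4 T cell list, Foxp3, Il2ra and Cd4 among them, lay above the upper quartile of gene levels (8.53) in the mean over all arrays. Foxp3, which encodes the lineage factor of Tregs, had a level of 10.68 ± 0.12 in IIKO and 10.63 ± 0.04 in WT chimeras (SD, n = 4 arrays each). Il2ra, which encodes the sort marker CD25, lay higher in every IIKO array (12.18 ± 0.08) than in every WT array (12.01 ± 0.04), and Cd4 was at 10.75 ± 0.07 in IIKO and 10.62 ± 0.07 in WT chimeras. Neither passed the limma test described below (adjusted p = 0.211 and 0.289). Of these 9 genes, 0 passed, 2 were higher at an unadjusted p under 0.05 and 3 had groups that do not overlap. The matching shares of all genes were 0.286%, 5.27% and 10.5%, in that order. What part the differences of the 9 genes had in the values below was not tested. CD39 and CD73 are also made by other cells, so markers of those cells were read beside them. Of 9 measured B and plasma cell markers and 13 myeloid and dendritic cell markers, 0 lay above that quartile, and of 9 NK and CD8 T cell markers, 1 did, Gzmb. The mean of the B cell markers ran from 6.01 to 6.13 over IIKO arrays and from 6.01 to 6.20 over WT arrays. That of the myeloid markers ran from 6.05 to 6.48 over IIKO arrays and from 6.17 to 6.44 over WT arrays. For the NK and CD8 T cell markers it ran from 6.91 to 7.11 over IIKO and from 6.88 to 7.09 over WT arrays. Single NK and CD8 T cell markers differed by -0.44 to 0.45, and 0 passed. At an unadjusted limma p under 0.05, 2 of these 9 were higher and 1 lower, or 33.3% against 17.3% of all genes. Groups did not overlap for 3 of them, against 10.5% of all genes. The mean of 8 stromal and endothelial markers lay lower in every IIKO array (6.21 to 6.30) than in every WT array (6.33 to 6.37), a difference of -0.10. Only 1 of these 8 lay above the median gene level. Among all genes at or below that level, 79.5% had a negative difference, and the median difference was -0.073. What part these marker differences had in the values below was not tested, and arrays of this kind give no true 0 for an absent transcript.

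Setting Tregs of IIKO chimeras against those of WT chimeras asked whether transcripts for adenosine handling differ with the donor marrow. Of the 6 measured genes, 0 passed the test (limma, Benjamini-Hochberg adjusted p under 0.05 over all genes), while 0.286% of all genes did. At an unadjusted limma p under 0.05 it was also 0 of 6, against 17.3% of all genes (5.27% higher and 12% lower in IIKO chimeras). The IIKO and WT arrays overlapped for each of the 6 genes, so that 0 of 6 had groups that do not overlap, against 10.5% of all genes. The 6 differences, IIKO minus WT, ran from -0.12 to 0.10 with a median of -0.02, and the median over all genes was -0.04. All 6 genes lay above the median gene level, and the median difference over all genes above that level was 0.011. As ratios of IIKO over WT, the 95% confidence intervals of all 6 lay between 0.733 and 1.31, so that a 2-fold difference in either direction was outside each of them. An adjusted p over the threshold does not show that the groups were equal, and differences inside these intervals remain possible. The intervals are not adjusted for the number of genes, so they do not mark the smallest difference the adjusted test could call. In sorted bulk cells, fewer cells with a transcript and less of it per cell cannot be told apart.

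**Figure D1:**
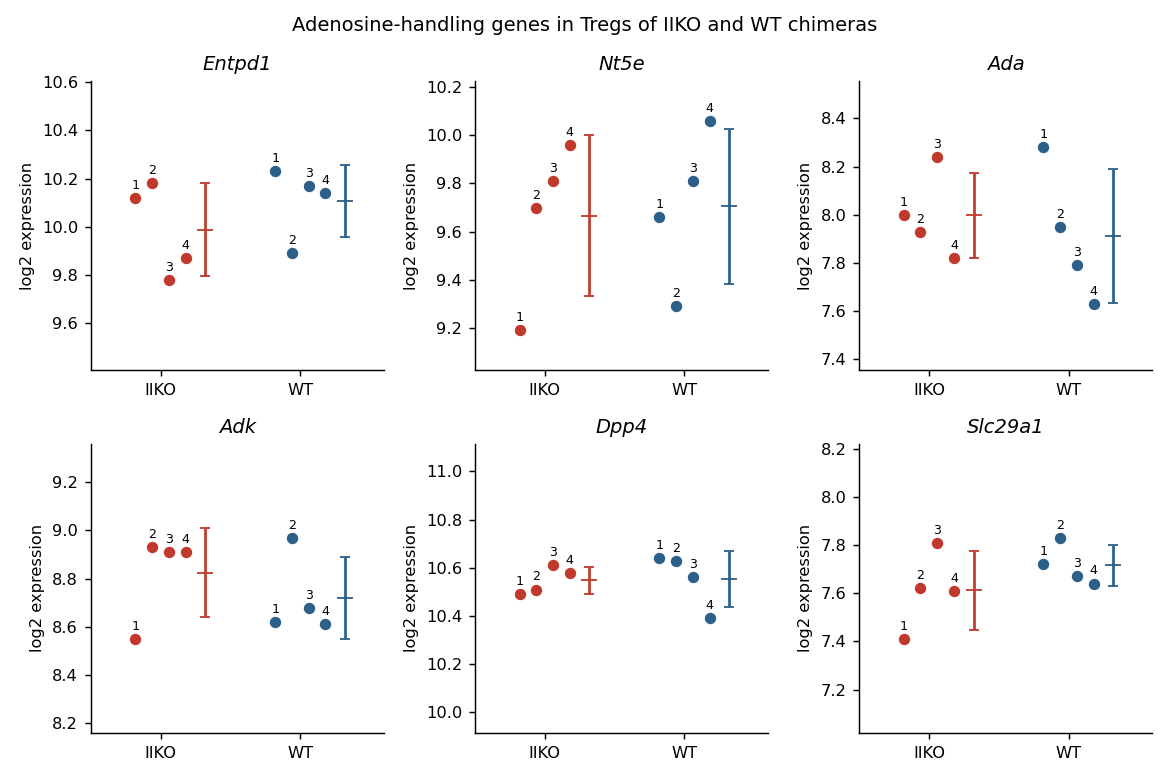
Log2 expression of the 6 measured adenosine-handling genes in each array (vertical axes, each spanning 1.2 log2 units), with IIKO chimeras in red at the left and WT chimeras in blue at the right. Points are single arrays numbered by replicate, and bars are the mean and SD of 4 arrays. The points of both groups overlap for every gene, and the points of Nt5e are spread widest, from 9.19 to 9.96 in IIKO and from 9.29 to 10.06 in WT chimeras.

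Entpd1, on chromosome 19, encodes CD39, the enzyme that starts the conversion of ATP. Its level was 10.12, 10.18, 9.78 and 9.87 in the IIKO arrays 1 to 4, against 10.23, 9.89, 10.17 and 10.14 in the WT arrays 1 to 4. IIKO arrays 3 and 4 and WT array 2 were low, and the other 5 arrays lay between 10.12 and 10.23. The means were 9.99 ± 0.19 in IIKO and 10.11 ± 0.15 in WT chimeras (SD, n = 4 arrays each). The difference of -0.12 ± 0.10 (SE) had a 95% confidence interval of -0.35 to 0.11 (limma adjusted p = 0.558). It was -0.05 without IIKO array 3 and -0.19 without WT array 2, with the same sign. The ratio of IIKO over WT was 0.92, with an interval of 0.785 to 1.08.

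Nt5e, on chromosome 9, encodes CD73, the enzyme of the step that yields adenosine. It stood at 9.19, 9.70, 9.81 and 9.96 in the IIKO arrays, against 9.66, 9.29, 9.81 and 10.06 in the WT arrays. Both groups held 1 array well below the rest, IIKO array 1 and WT array 2, and the span from lowest to highest array was 0.78 in each. The means were 9.67 ± 0.34 in IIKO and 9.70 ± 0.32 in WT chimeras (SD, n = 4 arrays each). The difference was -0.04 ± 0.19 (SE), with a 95% confidence interval of -0.45 to 0.38 (limma adjusted p = 0.934). It was 0.12 without IIKO array 1, 0.08 without WT array 4 and 0.01 with arrays centred on their medians, so it has no settled sign. The SD within groups, pooled over both, was 0.33 for Nt5e, larger than that of 98% of the 9968 genes above the median level, for which the median SD was 0.11. Of the 6 genes, this one therefore had the widest interval.

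Ada and Dpp4 both lie on chromosome 2. Ada encodes adenosine deaminase, which converts adenosine to inosine. It was at 8.00, 7.93, 8.24 and 7.82 in the IIKO arrays, against 8.28, 7.95, 7.79 and 7.63 in the WT arrays. All IIKO values lay inside the wider WT range. The means were 8.00 ± 0.18 in IIKO and 7.91 ± 0.28 in WT chimeras (SD, n = 4 arrays each). Their difference of 0.09 ± 0.13 (SE; limma adjusted p = 0.763) was -0.01 without WT array 4. The pooled SD of Ada, 0.23, was larger than that of 92.3% of the genes above the median level.

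Dpp4 encodes CD26, a surface peptidase that in human T cells also anchors adenosine deaminase, a role not examined in these mouse cells. Its values were 10.49, 10.51, 10.61 and 10.58 in the IIKO arrays, against 10.64, 10.63, 10.56 and 10.39 in the WT arrays. This was the steadiest of the 6 genes, with a pooled SD of 0.09 and a span of 0.12 over the IIKO arrays and 0.25 over the WT arrays. Both means were 10.55, with an SD of 0.06 in IIKO and 0.12 in WT chimeras (n = 4 arrays each). The ratio of IIKO over WT, 0.996, had a 95% confidence interval of 0.898 to 1.11 (limma adjusted p = 0.972). The sign of the difference, -0.01, turned without IIKO array 1 or 2 or WT array 1 or 2, with values up to 0.02, and after median centring of the arrays (0.04).

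Uptake and reuse of adenosine rest on Slc29a1 and Adk. Slc29a1, on chromosome 17, encodes the equilibrative nucleoside transporter ENT1, which lets adenosine cross the plasma membrane in both directions. It was at 7.41, 7.62, 7.81 and 7.61 in the IIKO arrays, against 7.72, 7.83, 7.67 and 7.64 in the WT arrays. IIKO array 1 was the lowest of all 8, while IIKO array 3 lay among the WT values. The means were 7.61 ± 0.16 in IIKO and 7.71 ± 0.09 in WT chimeras (SD, n = 4 arrays each). They differed by -0.10 ± 0.08 (SE; limma adjusted p = 0.542). Without IIKO array 1 it was -0.03.

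Adk, on chromosome 14, encodes adenosine kinase, which phosphorylates adenosine to AMP inside the cell. Its values were 8.55, 8.93, 8.91 and 8.91 in the IIKO arrays, against 8.62, 8.97, 8.68 and 8.61 in the WT arrays. In the IIKO group 3 arrays were close together and array 1 was low, whereas in the WT group array 2 was high. The means were 8.82 ± 0.18 in IIKO and 8.72 ± 0.17 in WT chimeras (SD, n = 4 arrays each). The difference was 0.10 ± 0.11 (SE), with a 95% confidence interval of -0.13 to 0.34 (limma adjusted p = 0.629), and it was 0.20 without IIKO array 1. For the 6 genes taken 1 by 1, exact permutation tests over the 70 splits of the arrays, two-sided, gave p from 0.257 for Entpd1 to 0.943 for Dpp4, where 0.0286 is the smallest p this design allows.

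**Figure D2:**
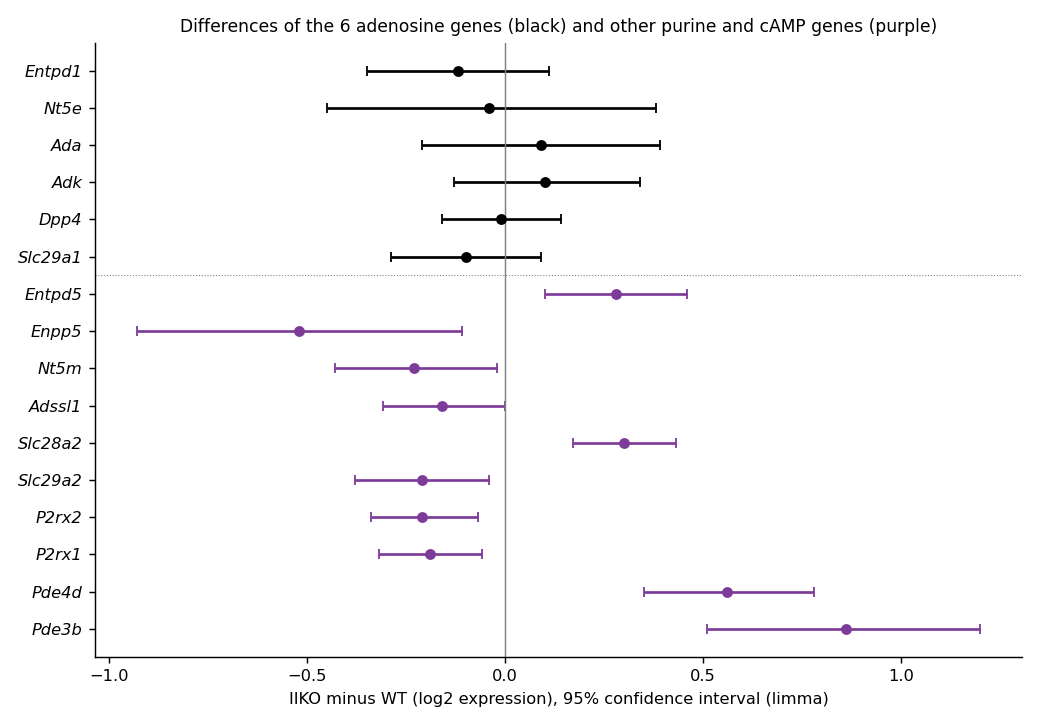
Difference in log2 expression, IIKO minus WT chimeras (horizontal axis), for the 6 adenosine-handling genes in black and 10 other purine and cAMP genes in purple. Points are limma estimates from 4 arrays a group and bars are 95% confidence intervals, not adjusted for the number of genes. All 6 black intervals cross 0; Pde3b (0.86) and Pde4d (0.56) lie farthest to the right, and Enpp5 (-0.52) farthest to the left.

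The 6 genes showed no shared order over the 8 arrays that passed a test. Among their 15 pairs, Ada and Dpp4 had the smallest p, with a Pearson r of 0.694 (exact permutation p = 0.0477, adjusted p = 0.57 over the 15 pairs). Spearman's rho for them was 0.643 (exact permutation p = 0.0962, adjusted p = 0.661). Without the 2 arrays farthest from the median of Ada, r was 0.213. Leaving those arrays out also narrows the range of Ada, which can lower r by itself. How far the relation rests on them therefore cannot be told from this value. Entpd1 and Nt5e, whose enzymes act in sequence, had an r of -0.0138 and a rho of -0.238 (exact permutation p = 0.953 and 0.582, adjusted p = 0.953 and 0.97). Their r was 0.549 over the 6 arrays left after the same step. These relations were not tested within groups.

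The genes whose pattern over the 8 arrays was most like that of Entpd1 or Nt5e were sought among 9215 named protein-coding genes above the median level. For Nt5e they were Mpdu1 (r = 0.972, rho = 0.929), Lrba (r = 0.968, rho = 0.976) and Rpl10a (r = 0.955, rho = 0.857). Each of these was, like Nt5e, lowest in IIKO array 1 and WT array 2. For Entpd1 they were Cuta (r = 0.927, rho = 0.881), Pcolce (r = 0.925, rho = 0.929) and Nid2 (r = 0.914, rho = 0.952). In total 17 genes had an r above 0.9 with Nt5e and 6 with Entpd1. These values describe 8 arrays that share their processing, and the highest of 9215 correlations over so few points are high by selection. The IIKO minus WT differences of the 6 genes ran from -0.17 for Nid2 to 0.00 for Lrba, and 0 of them passed the test (limma adjusted p from 0.336 to 0.997).

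**Figure D3:**
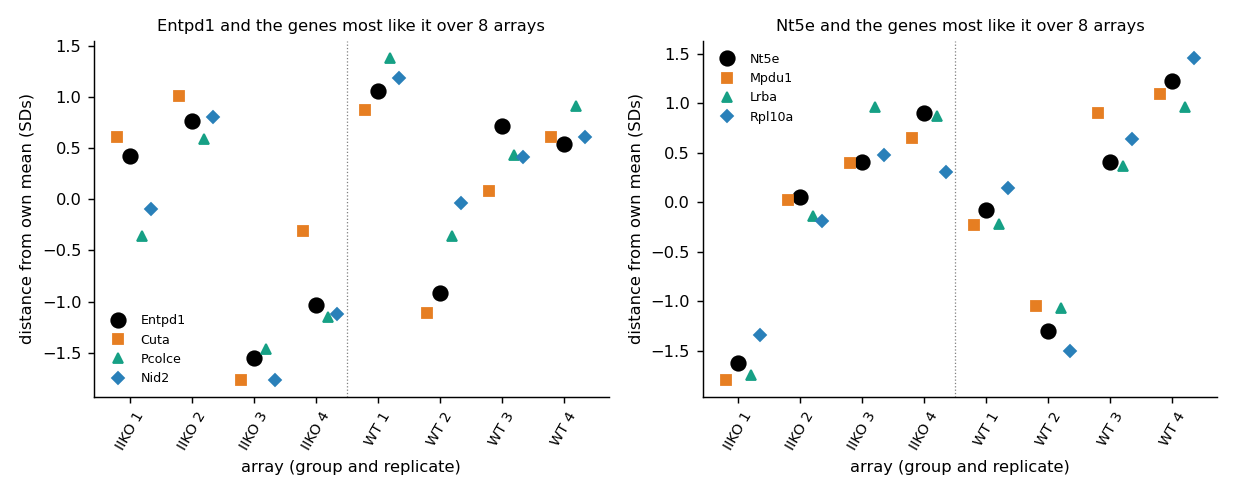
Level in each of the 8 arrays (horizontal axis, IIKO left of the dotted line and WT right of it) of Entpd1 (left panel) and Nt5e (right panel) in black and of the 3 genes most like each, as the distance from the gene's own mean in SDs over the arrays (vertical axis). Black points are lowest in IIKO array 3 for Entpd1 (9.78) and in IIKO array 1 for Nt5e (9.19), and the other genes were selected for following them.

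Around these genes, 5 lists of purine and cAMP genes held 78 further measured genes. Of these, 0 passed the test over all genes. Without adjustment, 9 had a limma p under 0.05 and were higher in IIKO chimeras and 11 were lower, or 25.6% of the 78 against 17.3% of all genes. Their median difference was -0.02. Dimmer genes leaned downward: 79.5% of all 9969 genes at or below the median level had a negative difference, against 46.3% of the brighter ones. In the lists, 24 of the 32 dimmer genes were negative, against 21 of the 46 brighter ones.

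Of 13 further ectonucleotidases and related surface enzymes, 0 passed, with a median of -0.04. With no adjustment, 3 were higher and 1 lower at a limma p under 0.05, or 30.8% against 17.3% of all genes. Entpd5, a relative of CD39 found in the endoplasmic reticulum, was at 8.78, 8.73, 8.42 and 8.55 in the IIKO arrays, against 8.32, 8.38, 8.30 and 8.35 in the WT arrays. Every IIKO array was above every WT array, with a difference of 0.28 ± 0.08 (SE; limma adjusted p = 0.169). Enpp5, of the nucleotide pyrophosphatase family, averaged 7.28 ± 0.27 in IIKO and 7.80 ± 0.38 in WT chimeras (SD, n = 4 arrays each), with overlapping arrays. Its difference was -0.52 ± 0.19 (SE; limma adjusted p = 0.218), and the gene lies on chromosome 17.

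Purine enzymes inside the cell had 0 of 21 further genes past the test, with a median of -0.03. Of them, 0 were higher and 2 lower at a limma p under 0.05 before adjustment, or 9.52% against 17.3% of all genes. The 2 were Nt5m, a mitochondrial nucleotidase (-0.23 ± 0.09, SE), and Adssl1, an enzyme of AMP synthesis (-0.16 ± 0.07). Neither passed over all genes (limma adjusted p = 0.253 and 0.276). Among 9 further nucleoside transporters and ATP release channels, 0 passed as well, with a median of -0.04. Without adjustment, 1 was higher and 1 lower at a limma p under 0.05, or 22.2% against 17.3% of all genes. The concentrative transporter gene Slc28a2, whose product carries purine nucleosides into the cell with sodium, came nearest. It was at 9.21, 9.31, 9.38 and 9.34 in the IIKO arrays, against 8.94, 9.01, 9.08 and 9.03 in the WT arrays. Every IIKO array was above every WT array, by little but with small spread: the ratio of IIKO over WT was 1.23, with a 95% confidence interval of 1.12 to 1.35 (limma adjusted p = 0.0847). With arrays centred on their medians it passed (adjusted p = 0.0346), and with arrays left out in turn it did not (adjusted p from 0.1 to 0.203). Slc29a2, which encodes the equilibrative transporter ENT2, a relative of ENT1, averaged 7.32 ± 0.14 in IIKO and 7.53 ± 0.07 in WT chimeras (SD, n = 4 arrays each; limma adjusted p = 0.22).

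Of the receptors for adenosine and nucleotides, 15 of 19 listed were measured, all of them of the P2X and P2Y families, whose members mostly bind nucleotides, since Adora1 and Adora3 were not analysed here either. Of these 15, 0 passed the test, with 2 higher and 6 lower at an unadjusted limma p under 0.05 and a median of -0.07. Higher and lower ones together came to 53.3% of the list, against 17.3% of all genes (5.27% higher and 12% lower). Only 4 of the 15 lay above the median gene level. Before adjustment, 16.6% of all dimmer genes were lower and 1.58% higher. The ATP-gated channels P2rx2 (6.18 ± 0.08 in IIKO and 6.38 ± 0.08 in WT chimeras) and P2rx1 (5.98 ± 0.07 in IIKO and 6.17 ± 0.07 in WT chimeras; SD, n = 4 arrays each) had the smallest p (limma adjusted p = 0.178 and 0.18). Their differences of -0.21 and -0.19 were -0.13 and -0.11 after a further quantile normalization (adjusted p = 0.394 and 0.449). These levels lie close to the lower quartile over genes, 6.04, and how far they stand above background is unknown.

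Adenosine receptors of the A2 type act through cAMP, which protein kinase A reads and phosphodiesterases destroy. Of 20 measured genes of this pathway, 0 passed the test, and the median was 0.08. The limma p was under 0.05 without adjustment for 3 higher genes and 1 lower one, or 20% against 17.3% of all genes. In this list 15 of the 20 lay above the median gene level. Among all brighter genes, 8.95% were higher and 7.42% lower before adjustment. The 3 higher genes of the list all encode phosphodiesterases that degrade cAMP, Pde3b, Pde4d and Pde4b. For each of them every IIKO array was above every WT array. They are the 3 of the 20 genes whose groups do not overlap, against 10.5% of all genes, and genes with a small p tend not to overlap. Pde4b (0.19 ± 0.07, SE; limma adjusted p = 0.223) was named after its value was seen. Pde4d was at 8.71, 8.59, 8.61 and 8.44 in the IIKO arrays, against 8.18, 7.82, 8.19 and 7.90 in the WT arrays. Its ratio of IIKO over WT was 1.48, with a 95% confidence interval of 1.27 to 1.71 (limma adjusted p = 0.0512). It passed after a further quantile normalization (adjusted p = 0.0404), with median centring (0.0368) and among the brighter genes alone (0.0389). The other 2 probe sets of Pde4d differed by 0.13 and 0.00, and the mean of all 3 by 0.23 (limma adjusted p = 0.128). Pde3b, on chromosome 7, was at 7.44, 7.86, 7.40 and 7.28 in the IIKO arrays, against 6.87, 6.54, 6.88 and 6.26 in the WT arrays, a ratio of 1.81 (1.42 to 2.31; limma adjusted p = 0.0662). Pde4a (-0.12 ± 0.08, SE), Pde7a (0.08 ± 0.15) and Pde8a (0.15 ± 0.17) were named to complete the phosphodiesterases of the cAMP list. These had an unadjusted limma p over 0.05, and the list does not hold the whole family. Gnas and Prkaca, for the stimulatory G protein and a catalytic subunit of protein kinase A, were not analysed here.

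**Figure D4:**
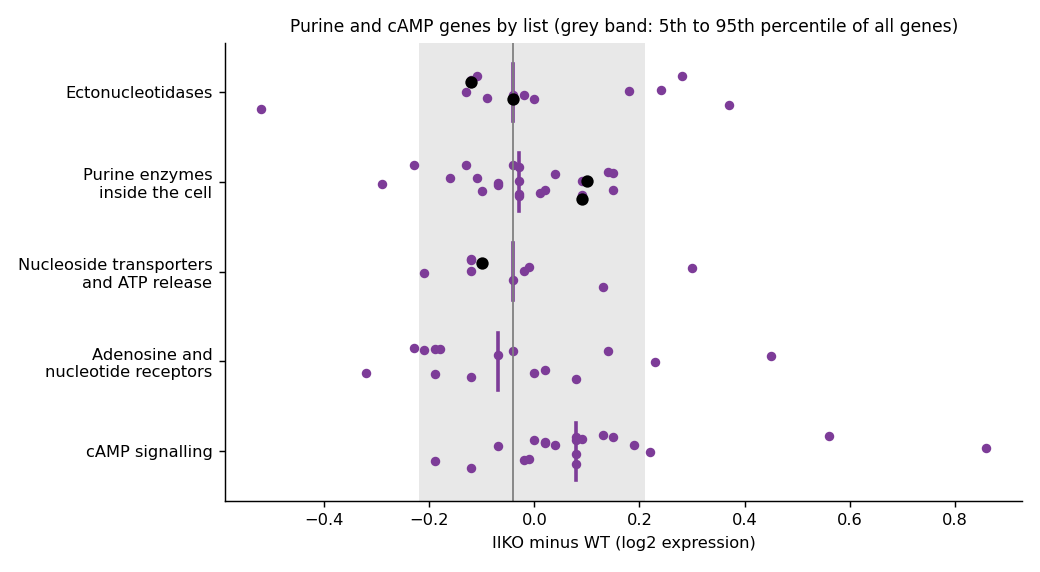
Difference in log2 expression, IIKO minus WT chimeras (horizontal axis), of each measured gene of 5 purine and cAMP lists (rows). Purple points are list genes, purple bars the median of each list without the black points, which are Entpd1, Nt5e, Ada, Adk and Slc29a1; the grey band runs from the 5th to the 95th percentile of all genes (-0.22 to 0.21). The 5 black points lie inside the band, and the largest positive difference, 0.86, is that of Pde3b.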

How the data were processed

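The submitters' processing notes name affy and RMA for the deposited log2 expression values, 1 per probe set and array, without versions. By design RMA corrects background, equalizes array quantiles and summarizes probes, which can shrink small differences. Probe-level data were not used here. Values ran from 2.54 to 13.72, the basis for the log2 scale. Of 34760 probe sets, the platform annotation gave 21640 a single symbol, 1321 several and 11799 no symbol; the last 2 kinds were left out. Per gene, the probe set that was brightest on average was kept, leaving 19937 genes, with no filter on dim genes. Groups follow the samples' titles. Limma 3.58.1 in R 4.3.3 (lmFit, eBayes, 6 residual degrees of freedom) compared IIKO minus WT over all genes, with Benjamini-Hochberg adjustment, a threshold of 0.05 and two-sided p; the fit was tested on simulated data. Exact permutation tests used scipy 1.17.1. Samples are labelled as biological replicates, with no mice named, and the p-values reflect the variation among these samples only. Any 2 arrays differed by an SD over genes of at least 0.185, so no 2 arrays held the same values.

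The members and lists were chosen with earlier results of these data known. Named are the 8 members, the 2 genes of smallest p in each purine or cAMP list, Foxp3, Il2ra and Cd4, and the 3 genes of highest r with Entpd1 and with Nt5e, without unnamed gene models, small RNAs, pseudogenes and antigen or olfactory receptor genes; others are named as chosen after their values were seen. The alternatives tried were to leave out each array in turn, to block on the replicate number, to lower the threshold to 0.01, to quantile-normalize once more, to centre arrays on their medians, to test only the brighter genes, to weight arrays, to let eBayes fit a trend with robust variance, and to average all probe sets of a gene.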

Additional observations from a re-analysis of the deposited data

Results flagged for a closer look

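In 38 groups of 4 arrays (19 named genes, 2 groups each) the highest and lowest array were set against the rest with Dixon's criterion, which chance exceeds in about 1 group in 20, and 2 groups exceeded it. Adk was at 8.55 in IIKO array 1, against 8.91 to 8.93 in the other IIKO arrays. Nt5m was at 7.15 in IIKO array 1, against 7.50 to 7.51 in the other IIKO arrays. Without that array the difference, IIKO minus WT, was 0.20 for Adk (limma adjusted p = 0.405) and -0.14 for Nt5m (adjusted p = 0.444). Nt5e (9.19) and Slc29a1 (7.41) were also lowest of all arrays in IIKO array 1, without exceeding the criterion.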

How the results depend on the processing

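Of the 6 adenosine genes, 0 passed limma's test under any of the 16 alternatives (adjusted p from 0.369 to 0.999). Entpd1, Adk and Slc29a1 kept their sign under all 16. Nt5e turned with median centring (0.01) and without IIKO replicate 1 (0.12) or WT replicate 4 (0.08), ranging from -0.18 to 0.12 with arrays left out. Ada was -0.01 without WT replicate 4 (range -0.01 to 0.21). Dpp4 turned with median centring (0.04) and without IIKO replicates 1 or 2 (0.01 each) or WT replicates 1 or 2 (0.02 each), ranging from -0.06 to 0.02. Of the 78 further list genes, 1 passed among the brighter genes alone and 1 after quantile-normalizing once more (Pde4d in both), 2 passed with median centring (Pde4d and Slc28a2), and 0 passed with arrays left out. Over all genes, 57 passed, against 21 at a threshold of 0.01 and 32 to 50 with arrays left out. With the replicate number as a block, 31 genes passed and 0 of the 6. Deviations from the group mean of each gene were correlated over genes between IIKO and WT arrays. These correlations ran from -0.07 to 0.22 for same-numbered arrays and from -0.14 to 0.1 for differently numbered ones. Whether the numbers pair the arrays cannot be told from these values. Median centring moved the median over all genes from -0.038 to 0.012. Signal over background could not be examined.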

Other observations

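P2rx7, the ATP-gated channel through which extracellular nucleotides can kill mouse T cells, was chosen after its value was seen, as the brightest of the 6 receptors that were lower at an unadjusted p under 0.05. It was at 8.87, 8.93, 9.13 and 9.34 in the IIKO arrays, against 9.22, 9.33, 9.59 and 9.41 in the WT arrays. The highest IIKO array lay inside the WT range. The difference was -0.32 ± 0.11 (SE), with a 95% confidence interval of -0.57 to -0.07, and did not pass (limma adjusted p = 0.213).

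P2ry14 and P2ry10, both of the P2Y receptor family and also named after their values were seen, were the 2 receptors that were higher at an unadjusted p under 0.05. P2ry14, a receptor for UDP-glucose, was at 7.63, 8.01, 7.14 and 6.97 in the IIKO arrays, against 6.83, 7.19, 6.96 and 6.98 in the WT arrays. IIKO arrays 1 and 2 stood above the WT range and arrays 3 and 4 inside it (difference 0.45 ± 0.19, SE; limma adjusted p = 0.274). P2ry10, whose product is known as a receptor for lysophosphatidylserine, differed by 0.23 ± 0.09 (SE; limma adjusted p = 0.252), with IIKO arrays 1 and 2 again highest, at 10.58 and 10.72, against 10.19 to 10.41 over the WT arrays.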
